A study of Mus musculus with 18 samples.

Results

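The genes described here are 43 mouse genes whose products make ribosomes in the nucleolus. They were chosen by name, as a module of subunits of RNA polymerase I, core proteins of the small nucleolar RNPs, and assembly factors of the small and the large ribosomal subunit. Earlier results of these data were known when they were chosen, so the counts over them describe the list and are no independent test. All 43 were found among the 56953 gene IDs of the deposited count table, and all 43 passed the filter on low counts that left 13068 genes for testing. RNA was sequenced from bone marrow-derived macrophages (BMDM), which were cultured over 7 days with 20% FBS and with L929-conditioned medium at 30%, which supplies M-CSF, the cytokine that drives marrow cells to become macrophages. The marrow donors were either C57BL/6J mice (B6) or knock-in mice (T169A) in which threonine T169 of the kinase RIPK1 is replaced by alanine. Both genotypes were sampled without stimulation, after 2 hours of lipopolysaccharide (LPS), which activates TLR4, and after 2 hours of LPS/5z7. What 5z7 stands for is not written in the labels; the name usually means (5Z)-7-oxozeaenol, which inhibits TAK1, a kinase upstream of NF-kB and MAP kinases. Each of the 6 groups held 3 libraries, which bear the numbers of the deposited columns. The sample titles carry letters that recur across the treatments of a genotype, but the columns carry none, so libraries were not paired. Separate animals or cultures are not named for the 3 libraries, so p-values measure only the spread between these samples, which may be technical.

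A ribosome begins as a long precursor RNA that RNA polymerase I transcribes in the nucleolus. Box C/D and box H/ACA small nucleolar RNPs mark the precursor with methyl groups and pseudouridines, and large complexes of assembly factors then fold, cut and export both subunits. In cells that start to grow or to make much new protein these genes are classically induced, and many of them are textbook targets of the transcription factor Myc; in macrophages LPS sets off a burst of new protein synthesis.

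The libraries held 14.6 to 30.4 M counts. The macrophage markers Lyz2, Csf1r, Adgre1 and Cd68 were abundant in all 18 libraries, and the summed level of 8 such markers was 31657 to 44590 CPM (counts per M, scaled by TMM, which aligns the bulk of genes rather than the totals). The erythroid, mast cell and T cell receptor markers were at or near 0. Tnf, a cytokine gene that LPS induces, rose from 106 ± 27.4 to 4947 ± 371 CPM in B6 and from 83.1 ± 30.0 to 4409 ± 370 CPM in T169A (SD, n = 3). Before stimulation, B6 libraries had 89.7 ± 13.5 CPM of Ripk1 transcript and T169A libraries 95.0 ± 3.88 CPM, and since a changed residue need not alter the amount of transcript, its level checks no genotype label. Libraries differed by gene length, most of all library 7. In B6 unstimulated library 7, genes with exons of at least 8000 bases sat 0.71 lower on the log2 scale, relative to their group mean, than genes under 2000 bases, and in B6 LPS library 8 they sat 0.26 lower. In T169A LPS library 11 they sat 0.33 higher. Libraries 8 and 11 were not alone in this size of difference. It was 0.32 and 0.38 in B6 unstimulated libraries 1 and 4 and -0.27 in T169A LPS library 17. Each value is relative to its group, so 1 library moves the others of that group. Libraries 7, 8 and 11 were left out together in a setting chosen after seeing the data. Where leaving out these 3 libraries changed a count by over 1.5 times, the second value is given here or with the alternative settings at the end.

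**Figure D1:**
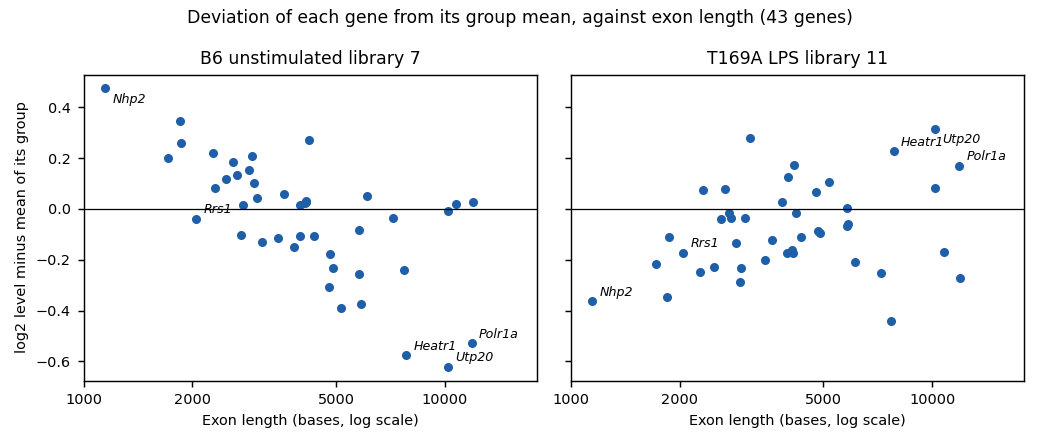
Each point is 1 of the 43 genes, with its exon length in bases on a log axis and its log2 level minus the mean of its group in B6 unstimulated library 7 (left) and T169A LPS library 11 (right). In library 7 the long genes Utp20 (-0.62), Heatr1 (-0.57) and Polr1a (-0.53) were low and the short gene Nhp2 (0.47) was high, while in library 11 Utp20 (0.32) was high and Nhp2 (-0.36) was low.

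In unstimulated B6 cells the levels of the 43 genes per exon length covered a wide range. Exon length here joins all annotated exons of a gene, and may exceed that of the transcript present. It was 10188 bases for Ncl, 2665 for Npm1 and 11955 for Wdr12, so the order depends on these lengths. Without division by length Ncl was above Npm1 in every library. Npm1, the histone and ribosomal protein chaperone nucleophosmin, led with 70.6 ± 9.09 RPKM (CPM per kilobase of exon, after TMM; SD, n = 3). It was followed by Noc2l with 33.4 ± 3.13 RPKM, by the nucleolar RNA-binding protein nucleolin (Ncl) with 29.9 ± 1.92 RPKM and by the large-subunit factor Pes1 with 28.2 ± 1.28 RPKM. Ncl and Pes1 did not differ beyond their spread. The lowest members were Wdr12 with 1.44 ± 0.03 RPKM and Rrp1b with 1.42 ± 0.21 RPKM, which did not differ beyond their spread. The same 4 genes led in unstimulated T169A cells, where Npm1 stood at 60.2 ± 2.55 RPKM. After LPS the order changed near the top: Rrs1 went from 7.48 ± 0.24 to 40.4 ± 1.45 RPKM in B6 cells and by its mean passed Noc2l, Ncl and Pes1. Npm1 is known to have processed pseudogene copies in the mouse genome, and how reads that match several places were counted is not given in the sources used here.

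The first comparison asks how these genes respond to 2 hours of LPS. In B6 cells 24 of the 43 genes rose and 5 fell, where a gene counts as called if its p from edgeR's quasi-likelihood test, adjusted over the 13068 genes, is under 0.05. Over all genes tested 29.6% rose and 33.5% fell. In T169A cells 27 of 43 rose, against 30.3% of all genes, and 4 fell, against 31.5%. The median log2 change of the 43 genes was 0.36 in B6 and 0.41 in T169A cells, where all genes tested had medians of -0.07 and -0.03. Of the genes that rose, 23 were shared by both genotypes, which is 95.8% of the B6 list and 85.2% of the T169A list. The 3 genes that fell in both were Nat10, Rrp1b and Wdr12. Of the 5 lower calls in B6, those of Rrp1b and Wdr12 held with any 1 library left out, and those of Nat10, Polr1b and Utp14a did not.

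The direction of these counts depends on how libraries are scaled. TMM factors were 1.24 to 1.28 in unstimulated and 0.83 to 0.86 in LPS libraries. Scaling by library size alone moved the median of all genes from -0.07 to -0.66 in B6 and from -0.03 to -0.61 in T169A cells. With it 8 of the 43 genes rose and 20 fell in B6, where 1996 of all 13068 genes rose and 8484 fell. In T169A cells 9 rose and 17 fell, against 1934 and 8106 of all genes. Counts of LPS changes by library size alone given below are to be read beside these. The distance between the median of the 43 genes and that of all genes was 0.43 in B6 under either scaling, and 0.45 in T169A cells. This had to be so, since another scaling moves all log2 changes of a comparison by about the same amount. The summed level of the 43 genes went from 1657 ± 83.6 to 2264 ± 25.3 CPM with LPS in B6 under TMM, but from 2078 ± 78.9 to 1886 ± 23.2 CPM by library size alone. In T169A cells it went from 1550 ± 33.2 to 2125 ± 26.1 CPM under TMM and from 1968 ± 22.2 to 1805 ± 54.2 CPM by library size alone. Changes below are relative to the bulk of genes, as TMM sets it. Ddx21, Ltv1, Nop58, Rrp9, Rrs1, Tsr1 and Wdr43 rose in both genotypes under both scalings, as did Noc3l in B6 and Nhp2 and Noc4l in T169A cells.

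**Figure D2:**
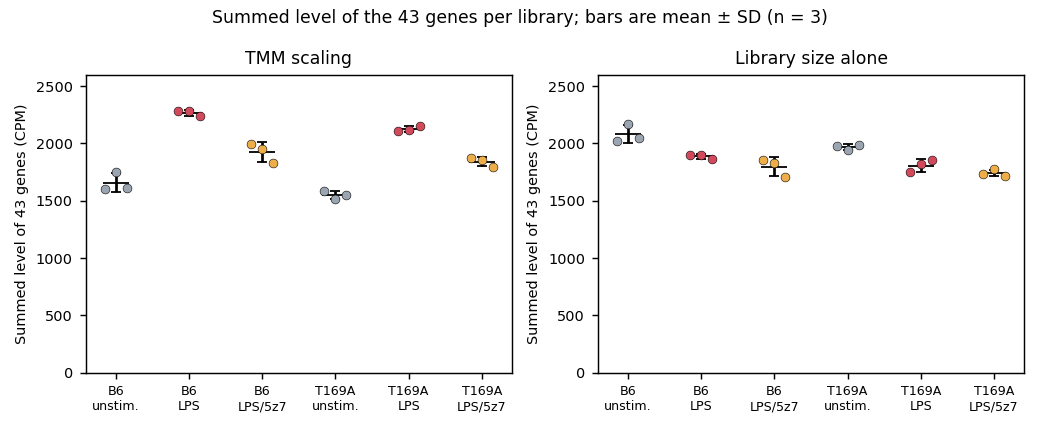
Summed level of the 43 genes in each of the 18 libraries, in CPM after TMM scaling (left) and by library size alone (right); points are libraries and bars mean ± SD (n = 3). With TMM the B6 LPS libraries lie between 2235 and 2279 CPM, above the unstimulated ones at 1604 to 1753 CPM, while by library size alone the LPS libraries, at 1859 to 1901 CPM, lie below the unstimulated ones at 2019 to 2168 CPM.

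Of 3 subunits of RNA polymerase I, 1 fell and 2 were not called in B6 cells under TMM, and all 3 fell by library size alone. Polr1b, its second-largest subunit, was at 14.99, 16.5 and 14.4 CPM in the unstimulated B6 libraries and at 13.4, 13.1 and 11.5 CPM after LPS. All 3 LPS libraries lay below all 3 unstimulated ones, and Polr1b fell by 0.27 ± 0.10 on the log2 scale (SE; edgeR, adjusted p = 0.0274). Polr1b was not called without unstimulated library 4 or LPS library 8, with a change of -0.21 in both fits. In T169A cells it was at 15.3, 15.4 and 14.8 CPM unstimulated and 12.8, 12.8 and 14.6 CPM after LPS, again with every LPS library lower, but the change of -0.18 did not pass the test (edgeR, adjusted p = 0.143). Polr1a, the catalytic largest subunit, had a log2 change of 0.02 ± 0.17 in B6 and -0.30 ± 0.17 in T169A cells, neither called. Polr1c, a subunit shared with RNA polymerase III, rose in T169A cells by 0.47 ± 0.13 (edgeR, adjusted p = 0.00341) and had an uncalled change of 0.26 ± 0.13 in B6; by library size alone its T169A change was -0.11.

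The box C/D small nucleolar RNP, which guides 2′-O-methylation of ribosomal RNA, responded unevenly. All 3 of its members rose in both genotypes under TMM, although Fbl and Nop56 changed sign by library size alone and Nop58 did not. Nop58, a core scaffold protein, was at 22.1, 24.9 and 23.9 CPM in unstimulated B6 libraries and at 62.5, 61.4 and 68.2 CPM after LPS. This was a 2.70-fold rise with no overlap of libraries (edgeR, adjusted p = 1.92e-10). In T169A cells Nop58 went from 21.1, 21.4 and 21.3 CPM to 55.2, 65.0 and 66.9 CPM, a 2.93-fold rise (edgeR, adjusted p = 7.65e-11). Fibrillarin (Fbl), the methyltransferase of the complex, was at 22.9, 27.2 and 33.1 CPM unstimulated and at 33.2, 37.2 and 38.9 CPM after LPS in B6. The lowest LPS library sat just above the highest unstimulated one, and Fbl rose 1.31-fold (edgeR, adjusted p = 0.00685). Fbl in T169A cells was at 23.7, 26.2 and 24.8 CPM and rose to 32.9, 33.3 and 33.4 CPM (1.33-fold; edgeR, adjusted p = 0.00517). Nop56, the partner of Nop58, rose by 0.54 ± 0.10 in B6 and 0.57 ± 0.10 in T169A cells on the log2 scale, against -0.05 and -0.01 by library size alone, where Fbl had -0.20 and -0.17.

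The box H/ACA small nucleolar RNP makes pseudouridine. Its catalytic subunit dyskerin (Dkc1) was at 10.1, 10.1 and 10.4 CPM in unstimulated B6 libraries and at 10.9, 9.06 and 10.7 CPM after LPS. The groups overlapped, and the log2 change of 0.00 had a 95% interval from -0.25 to 0.25. In T169A cells Dkc1 was at 9.56, 10.5 and 9.14 CPM and then at 9.52, 11.5 and 11.3 CPM, again overlapping and not called. By library size alone Dkc1 fell in both genotypes. The small core protein Nhp2 was at 16.99, 18.1 and 28.8 CPM unstimulated and at 34.9, 37.0 and 47.3 CPM after LPS in B6. The highest unstimulated value was that of library 7 and the highest LPS value that of library 8, and the groups still did not overlap; Nhp2 rose 1.87-fold (edgeR, adjusted p = 0.000279). Nhp2 in T169A cells went from 19.8, 18.1 and 20.9 CPM to 32.8, 47.2 and 48.6 CPM (2.18-fold; edgeR, adjusted p = 3.21e-05). Gar1, the third core protein here, rose by 0.53 ± 0.12 in B6 and by 0.71 ± 0.12 in T169A cells, with the B6 change turning to -0.06 by library size alone. Of the 3 genes, 2 rose in each genotype under TMM. By library size alone 0 rose and 1 fell in B6, and in T169A cells 1 rose (Nhp2) and 1 fell.

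Of the 16 small-subunit assembly genes, 9 rose and 2 fell in B6 cells under TMM, while 4 rose and 9 fell by library size alone. In T169A cells 8 rose and 2 fell under TMM, and 5 rose and 8 fell by library size alone. Wdr43, a member of the UTP-A complex that binds the start of the precursor RNA, changed most. It stood at 34.8, 38.4 and 26.5 CPM in unstimulated B6 libraries and at 91.0, 92.6 and 94.8 CPM after LPS, a 2.78-fold rise (edgeR, adjusted p = 3.8e-08). Wdr43 in T169A cells went from 32.2, 31.1 and 29.3 CPM to 89.5, 78.5 and 88.7 CPM, again 2.78-fold (edgeR, adjusted p = 3.94e-08). The LPS and unstimulated libraries were far apart in both genotypes. Other UTP-A members had smaller estimates. Utp4 rose by 0.35 ± 0.11 in B6, which became -0.24 by library size alone, and Wdr75 and Utp15 had uncalled changes of 0.11 ± 0.13 and -0.29 ± 0.13; Utp15 fell in T169A cells, by 0.41 ± 0.13. Heatr1, the largest protein of UTP-A, was at 62.8, 65.4 and 35.2 CPM in unstimulated B6 libraries and at 62.6, 59.7 and 49.6 CPM after LPS. Library 7 gave the lowest Heatr1 value, the groups overlapped, and the log2 change was 0.07 ± 0.17. In T169A cells Heatr1 was at 58.7, 54.0 and 49.8 CPM unstimulated and 58.2, 46.9 and 44.9 CPM after LPS, with no call.

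Tsr1 and Ltv1, which act late in small-subunit maturation, rose more than 2-fold. Tsr1, a GTPase-like protein that blocks the immature subunit from translating, was at 21.2, 23.5 and 19.1 CPM in unstimulated B6 libraries and at 51.7, 47.4 and 47.9 CPM after LPS. The 2.30-fold rise had no overlap (edgeR, adjusted p = 2.34e-09), and in T169A cells Tsr1 rose 2.22-fold, from 21.9, 19.2 and 19.1 CPM to 45.4, 44.5 and 43.9 CPM (edgeR, adjusted p = 4.07e-09). On the older build GRCm38, 32.3% of the exon bases of Tsr1 are shared with Srr on the opposite strand, and the strand setting of the counting is not given in the sources used here. Srr itself was at 10.5 ± 1.20 CPM unstimulated and 8.77 ± 0.82 CPM after LPS in B6 (edgeR, adjusted p = 0.109), and in T169A cells Srr fell by 0.62 ± 0.14 (edgeR, adjusted p = 0.000837). Ltv1, an export and maturation factor, rose 2.19-fold in B6 and 2.18-fold in T169A cells. Rrp9, the protein specific to the U3 small nucleolar RNP, rose by 0.93 ± 0.13 and 1.07 ± 0.13 on the log2 scale, and Noc4l, the partner of Nop14, by 0.70 ± 0.10 and 0.88 ± 0.10. The acetyltransferase Nat10, which modifies cytidines of ribosomal RNA, fell by 0.35 ± 0.13 in B6 and by 0.44 ± 0.13 in T169A cells. The B6 call of Nat10 was lost when unstimulated library 1 or 4 or LPS library 2 or 5 was dropped, with changes of -0.27 to -0.35, and that of Utp14a when library 4 or 8 was dropped (-0.32 and -0.22). Utp14a, a late processome factor, fell in B6 by 0.33 ± 0.12 and shares 11.5% of its exon bases with 9530027J09Rik on the opposite strand, and Utp20, with overlapping libraries, rose in B6 by 0.58 ± 0.21 but turned to -0.01 by library size alone.

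Of the 12 large-subunit assembly genes, 6 rose and 2 fell in B6 cells under TMM, and 2 rose and 5 fell by library size alone; in T169A cells the counts were 8 and 2 under TMM and 1 and 5 by library size alone. Rrs1, which helps to dock the 5S RNA particle on the large subunit, had the largest change of all 43 genes in both genotypes. Its levels were 15.8, 15.2 and 14.9 CPM in unstimulated B6 libraries and 79.7, 82.5 and 85.7 CPM after LPS. The rise was 5.39-fold, with every LPS library far above every unstimulated one (edgeR, adjusted p = 4.37e-13). In T169A cells Rrs1 went from 13.8, 12.1 and 12.2 CPM to 68.1, 77.0 and 86.1 CPM, a 6.06-fold rise (edgeR, adjusted p = 2.17e-13). Rrs1 is also the only one of the 43 genes whose annotated transcript has a single exon, with a span of 2048 bases. Across the 43 genes, those with a shorter genomic span tended to rise more, with a Spearman rho between span and log2 change of -0.33 in B6 and -0.48 in T169A cells, where 12811 tested genes gave 0.13 and 0.04; genes are not independent replicates, span goes with exon length, and the part that library effects by length play in this was not tested.

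The PeBoW complex, made of Pes1, Bop1 and Wdr12, is needed to process the large-subunit RNA, and of its 3 genes Bop1 rose under TMM, Wdr12 fell and Pes1 was not called. Pes1 was at 80.9, 87.3 and 87.9 CPM in unstimulated B6 libraries and at 74.4, 82.0 and 81.8 CPM after LPS. The groups overlapped and Pes1 had an uncalled change of -0.10 ± 0.07; in T169A cells it was at 82.8, 80.2 and 85.5 CPM and then at 74.6, 75.2 and 80.0 CPM, with a change of -0.11 ± 0.07 that did not pass the test either. Bop1 rose by 0.45 ± 0.10 in B6 and 0.46 ± 0.10 in T169A cells under TMM, against changes of -0.14 and -0.12 by library size alone. Wdr12 was at 16.8, 17.3 and 17.6 CPM in unstimulated B6 libraries and at 9.96, 11.6 and 9.33 CPM after LPS. Its libraries did not overlap, and Wdr12 fell by 0.73 ± 0.14 in B6 (edgeR, adjusted p = 0.000221) and by 0.68 ± 0.14 in T169A cells (edgeR, adjusted p = 0.000539). Rrp1b, a nucleolar factor that binds protein phosphatase 1, fell most, by 0.87 ± 0.17 in B6 and 0.95 ± 0.17 in T169A cells. Noc3l rose by 0.83 ± 0.11 and 0.62 ± 0.11. Its relative Noc2l, a nucleolar protein that also acts on histone acetylation, rose only in the T169A test, by 0.23 ± 0.08 against an uncalled 0.16 ± 0.08 in B6; the difference between genotypes did not pass its own test, and by library size alone the T169A change was -0.35. Samd11, which shares 20.9% of the exon bases of Noc2l on the opposite strand, was at 0.17 ± 0.07 CPM in unstimulated B6 cells.

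Among the 6 nucleolar proteins with several roles, 4 rose in B6 and 5 in T169A cells under TMM; by library size alone 1 rose and 2 fell in B6, and 1 rose and 1 fell in T169A cells. Ddx21, an RNA helicase that couples transcription with processing of ribosomal RNA, was at 64.4, 75.3 and 46.5 CPM in unstimulated B6 libraries and at 164, 161 and 147 CPM after LPS. Library 7 was again the lowest, and the rise was 2.53-fold without overlap (edgeR, adjusted p = 9.64e-08). Ddx21 in T169A cells went from 65.9, 58.0 and 55.2 CPM to 145, 134 and 125 CPM, or 2.26-fold (edgeR, adjusted p = 4.82e-07). Ncl and Npm1, the most abundant transcripts of the 6 per exon length in RPKM, had the smallest estimates of the 6 in both genotypes. Ncl was at 286, 325 and 302 CPM in unstimulated B6 libraries and at 353, 353 and 326 CPM after LPS. Its LPS libraries all lay above the unstimulated ones, but the change of 0.18 ± 0.09 did not pass (edgeR, adjusted p = 0.094), nor did that of 0.21 ± 0.09 in T169A cells, from 281, 265 and 277 CPM to 336, 315 and 301 CPM (edgeR, adjusted p = 0.0513). Npm1 was at 160, 199 and 205 CPM and then at 225, 238 and 202 CPM in B6, with overlap and no call. In T169A cells Npm1 went from 164, 153 and 164 CPM to 219, 202 and 201 CPM and rose by 0.37 ± 0.11 (edgeR, adjusted p = 0.00597), though its change was -0.21 by library size alone. Gnl3 (nucleostemin, a GTPase of stem and growing cells) rose by 0.39 ± 0.10 in B6, Nolc1 (a chaperone of small nucleolar RNPs) by 0.48 ± 0.09 and Mybbp1a by 0.64 ± 0.09, but Gnl3 and Nolc1 had -0.20 and -0.11 by library size alone.

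**Figure D3:**
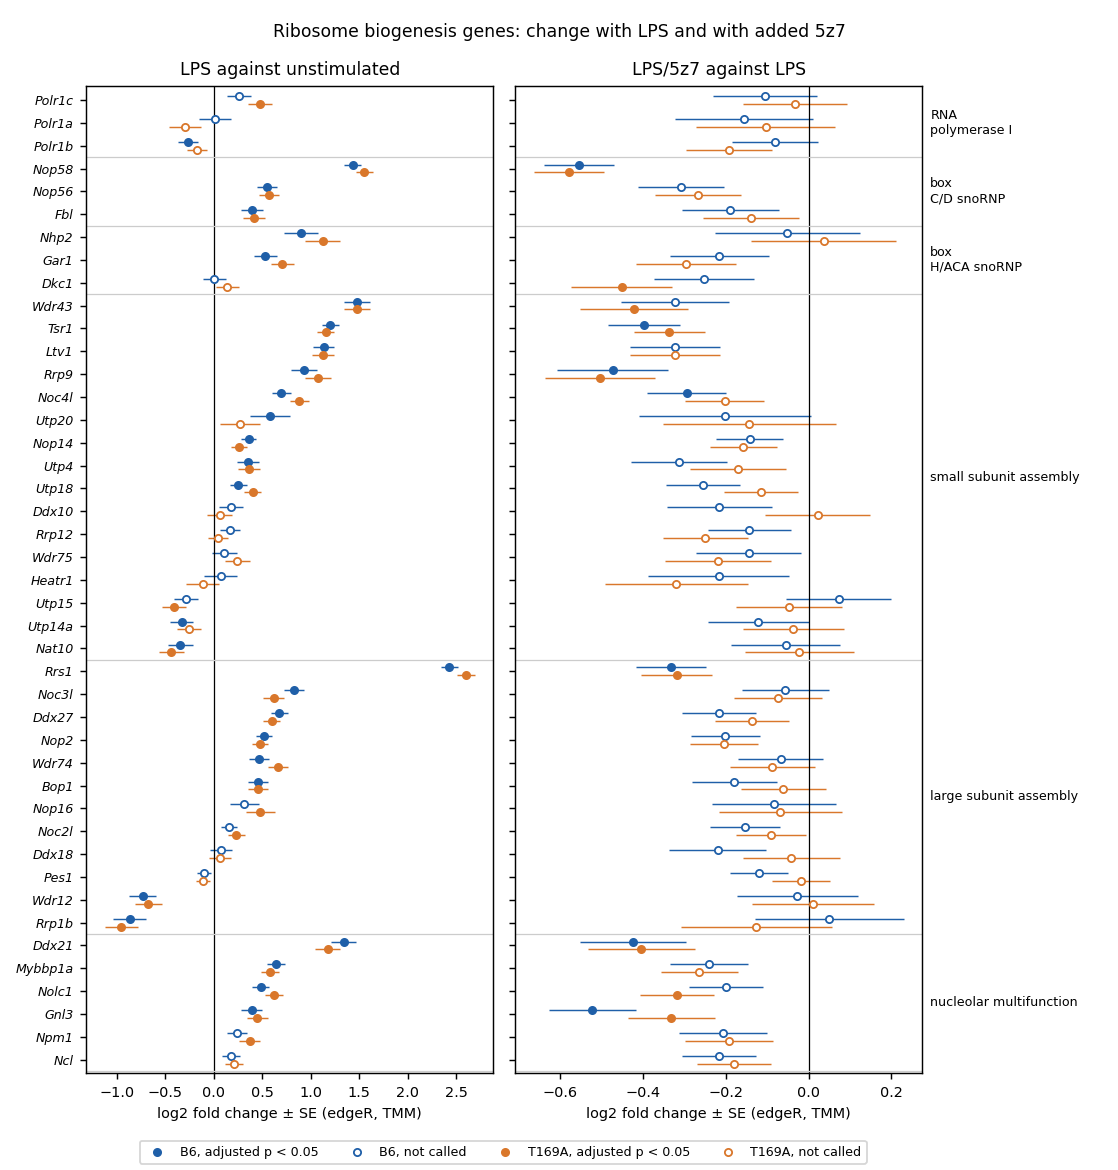
Log2 fold change ± SE of each of the 43 genes (edgeR, TMM) for LPS against unstimulated (left) and LPS/5z7 against LPS (right), in B6 (blue) and T169A (orange), grouped by role; filled points are called. Rrs1 stands out at 2.43 in B6 and 2.60 in T169A. On the left 24 genes were called higher in B6 under TMM, against 29.6% of all genes. By library size alone 8 were, against 1996 of all 13068 genes, and none was called higher on the right.

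Markers of other cell types and of the cell cycle were read beside these changes. The summed level of 8 proliferation markers was 214 to 244 CPM in unstimulated and 601 to 763 CPM in LPS libraries of B6, and 232 to 235 and 586 to 788 CPM in T169A. With LPS/5z7 it was 643 to 695 and 571 to 652 CPM. All 8 were detected, but the rise rested on Mki67 and Pcna, which rose by 3.46 ± 0.29 and 0.45 ± 0.08 in B6, while Cdk1 and Mcm2, genes of mitosis and DNA replication, fell by 0.36 ± 0.13 and 0.81 ± 0.12. Summed neutrophil markers were at 21.2 to 33.1 CPM unstimulated and 43.6 to 53.4 CPM after LPS in B6, and 30.4 to 42.8 and 43.5 to 70.1 CPM in T169A, with 4 to 6 of 8 detected per group and Ly6g and Elane at or near 0. Summed dendritic cell markers, with 1 or 2 of 6 detected per group, were at 0.59 to 0.74 CPM unstimulated and 2.68 to 2.84 CPM after LPS in B6, and 0.20 to 0.59 and 1.88 to 2.49 CPM in T169A. Flt3 and Xcr1 were at or near 0, and Zbtb46 rose by 2.83 ± 0.30 and 3.11 ± 0.34. Summed B cell markers, with 2 of 6 detected, went from 21.6 to 30.1 CPM unstimulated to 15.2 to 22.4 CPM after LPS in B6, and from 23.0 to 25.9 to 17.5 to 19.5 CPM in T169A, with Cd79b lower by call in both genotypes. The part of these markers in the changes of the 43 genes was not tested. Bulk RNA cannot tell fewer cells of a type from less RNA per cell.

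Other genes of the pathway also moved in both directions. Of 114 further genes for ribosome biogenesis that could be matched, out of 118 listed, 49 rose and 13 fell with LPS in B6, and 59 rose and 10 fell in T169A cells under TMM; by library size alone 11 rose and 71 fell in B6, and 14 rose and 59 fell in T169A cells. Their median log2 change under TMM was 0.20 in B6 and 0.32 in T169A cells. Of all genes tested, 29.6% rose and 33.5% fell in B6 and 30.3% and 31.5% in T169A cells under TMM. By library size alone 1996 of all 13068 genes rose and 8484 fell in B6, and 1934 and 8106 in T169A cells. Among 41 other small-subunit factors, Rcl1, an endonuclease of the 18S precursor, went from 8.86, 7.71 and 9.47 CPM to 46.0, 46.3 and 56.6 CPM in B6. Every LPS library exceeded every unstimulated one for Rcl1, a 5.73-fold rise (edgeR, adjusted p = 5.04e-12), and Dcaf13 rose 3.06-fold (edgeR, adjusted p = 2.95e-12). Among 53 other large-subunit factors, Sdad1 and Pwp1 rose by 1.46 ± 0.10 and 1.40 ± 0.08 in B6. These 4 also rose in T169A cells and by library size alone. Of 9 other polymerase I genes, 3 rose in B6 under TMM, and 4 rose and 1 fell in T169A cells, while by library size alone 7 fell in B6 and 6 in T169A cells. Rrn3, the factor that makes polymerase I competent to initiate, was at 32.5, 33.1 and 26.4 CPM unstimulated and 45.9, 46.8 and 42.1 CPM after LPS in B6. Rrn3 rose by 0.55 ± 0.09 (edgeR, adjusted p = 5.3e-05), which became -0.04 by library size alone, and Polr1e rose by 0.46 ± 0.14, which became -0.13. Ubtf, which binds the ribosomal DNA promoter, had an uncalled change of 0.09 ± 0.08 under TMM. Of 11 other factors of small nucleolar RNPs, Snu13 rose by 0.44 ± 0.17 in B6 and Pih1d1 fell by 0.43 ± 0.18, both with overlapping libraries, and the change of Snu13 was -0.16 by library size alone.

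The Myc network was measured as the best known regulator of these genes. Myc was at 23.0, 24.7 and 23.5 CPM in unstimulated B6 libraries and at 14.9, 14.3 and 20.4 CPM after LPS. All 3 LPS libraries were lower, but the change of -0.53 ± 0.24 did not pass (edgeR, adjusted p = 0.0593); in T169A cells Myc was at 22.1, 22.1 and 21.1 CPM and then at 13.3, 24.3 and 26.0 CPM, with overlap and a change of -0.05 ± 0.24. By library size alone Myc fell in both, by 1.12 and 0.63. Of the 10 network genes tested, 4 rose and 3 fell in B6 and 3 rose and 3 fell in T169A cells, with a median change of -0.11 and -0.01. The 4 with the largest changes were picked after their values were seen. Mnt, a repressor that competes with Myc for Max, went from 70.2, 66.7 and 52.2 CPM to 7.32, 6.66 and 5.44 CPM in B6 and fell by 3.27 ± 0.15 (edgeR, adjusted p = 5.68e-12). Mycl, a relative of Myc, went from 1.76, 2.75 and 1.24 CPM to 19.0, 15.7 and 17.1 CPM and rose by 3.11 ± 0.18 (edgeR, adjusted p = 1.57e-10). Mxd1, another repressor, rose by 3.05 ± 0.18 and Mxd4 fell by 1.55 ± 0.09. Mnt, Mycl, Mxd1 and Mxd4 kept their direction and their call in both genotypes and by library size alone. Mycn had no count in any library.

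**Figure D4:**
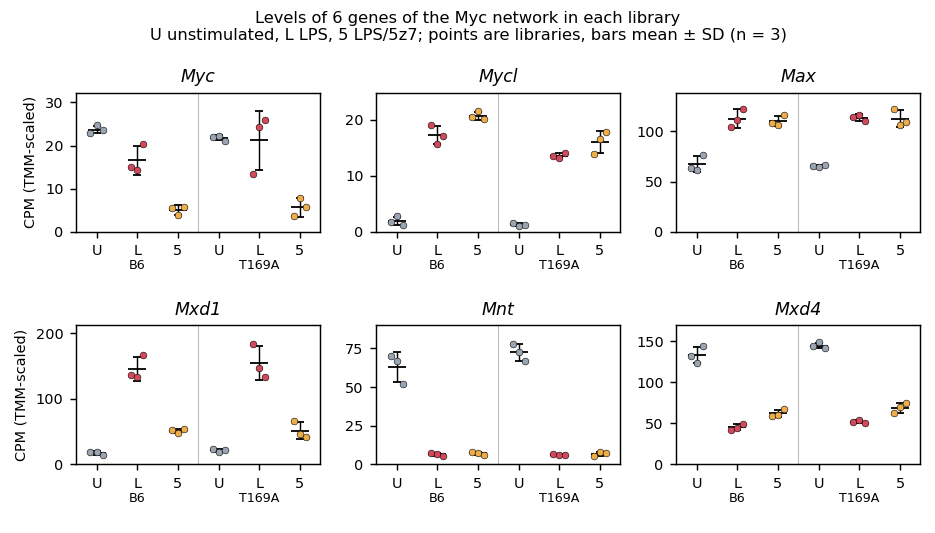
Levels in TMM-scaled CPM of 6 genes of the Myc network in each of the 18 libraries, for unstimulated (U), LPS (L) and LPS/5z7 (5) cells of B6 and T169A; points are libraries and bars mean ± SD (n = 3). With LPS, Mnt and Mxd4 were low and Mycl and Mxd1 high in every library of both genotypes, and Myc was lowest with LPS/5z7, at 3.56 to 7.94 CPM.

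Promoters of the 43 genes were searched for the E-box CACGTG, the site to which Myc and Max bind. Sequences from 250 bases before to 50 after the start were at hand for 38 of the 43 genes (RefSeq, GRCm38.p6), with no entry for Rrs1, Rrp12, Bop1, Fbl and Npm1. The E-box, which reads the same on both strands, was in 9 of 38, or 23.7%, against 11.8% of 9592 tested genes and 8.09% of 27025 genes in all. In the 250 bases before the start alone it was in 2 of 38, or 5.26%, against 10.03% of tested genes, so most of these sites lay in the first 50 transcribed bases. The ETS motif CCGGAAG was in 39.5% of the 38, against 21.0% of tested genes, and the YY1 motif AAGATGGC in none of the 38, against 5.55%, both searched on both strands. Of the 9 genes with an E-box, 8 rose with LPS in B6 under TMM, against 13 of the 29 without; in T169A cells it was 7 of 9 against 16 of 29. Pes1 was the 1 gene of the 9 that did not rise in B6. By library size alone Nop2, Utp4, Utp18 and Utp20 changed sign in B6. These counts describe letters in a window, not binding. The stretches are printed to show where the site sits in each gene, 5′ to 3′ on the strand of the gene, with the E-box in capitals.
Nop2: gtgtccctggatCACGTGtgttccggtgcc
Utp4: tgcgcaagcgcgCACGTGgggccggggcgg
Ltv1: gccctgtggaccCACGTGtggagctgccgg
Utp20: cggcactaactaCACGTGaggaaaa
Pes1: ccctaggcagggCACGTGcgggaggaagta
Mybbp1a: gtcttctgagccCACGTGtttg
Tsr1: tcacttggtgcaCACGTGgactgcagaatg
Utp18: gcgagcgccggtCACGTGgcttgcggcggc
Wdr43: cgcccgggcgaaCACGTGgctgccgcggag

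The stretches lie, on GRCm38.p6, at chr6:125131811-125131840 (plus strand) for Nop2, chr8:106893643-106893672 (plus) for Utp4, chr10:13193092-13193121 (minus) for Ltv1, chr10:88826765-88826789 (minus) for Utp20, chr11:3963965-3963994 (plus) for Pes1, chr11:72441355-72441376 (plus) for Mybbp1a, chr11:74898092-74898121 (plus) for Tsr1, chr11:93885769-93885798 (minus) for Utp18 and chr17:71616220-71616249 (plus) for Wdr43. In Nop2 and Utp18 the E-box began 60 and 20 bases before the start. In the other 7 it began at base 3 (Pes1), 16 (Utp4), 18 (Wdr43), 25 (Tsr1), 29 (Ltv1), 38 (Utp20) and 41 (Mybbp1a) of the transcript. Wdr43, Tsr1 and Ltv1, printed above, were also among the genes that rose under both scalings.

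The second comparison asks what 5z7 adds to LPS, and it shares the LPS libraries with the first. In B6 cells 7 of the 43 genes fell and none rose, against 6.79% of all genes that fell and 7.03% that rose. In T169A cells 9 fell and none rose, against 6.53% and 6.5%. DESeq2 called 15 lower in B6 and 13 in T169A and also none higher. Of 12205 genes it called 1202 lower and 850 higher in B6, and 1120 and 812 in T169A. At an unadjusted p under 0.05 edgeR had 17 and 16 of the 43 genes in either direction, and all genes were not counted at that limit. The median change was -0.20 in B6 and -0.17 in T169A cells, where all genes had 0.02 in both. Ddx21, Gnl3, Nop58, Rrp9, Rrs1 and Tsr1 fell in both genotypes, which is 85.7% of the B6 list and 66.7% of the T169A list; Noc4l was called in B6 alone and Dkc1, Nolc1 and Wdr43 in T169A alone. By library size alone the median of all genes moved to 0.18 and 0.17. Nop58 and Gnl3 then fell in B6 and Nop58 in T169A cells. Of all 13068 genes, 516 fell and 2339 rose in B6 under that scaling, and 530 fell and 2177 rose in T169A cells.

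Nop58 had the smallest p of the 43 genes in B6. It was at 47.3, 41.9 and 41.4 CPM with LPS/5z7, where LPS alone gave 61.4 to 68.2 CPM. The libraries did not overlap, and Nop58 fell by 0.55 ± 0.08 on the log2 scale (edgeR, adjusted p = 0.000277). In T169A cells it was at 41.4, 43.3 and 40.4 CPM and fell by 0.58 ± 0.08 (edgeR, adjusted p = 0.00018). Gnl3 was at 27.2, 27.1 and 28.6 CPM in unstimulated B6 libraries, at 35.0, 34.2 and 39.6 CPM with LPS and at 24.4, 27.1 and 24.0 CPM with LPS/5z7. Its LPS/5z7 libraries all lay below the LPS ones and near or below the unstimulated ones, and Gnl3 fell by 0.52 ± 0.11 against LPS (edgeR, adjusted p = 0.0029). Gnl3 in T169A cells was at 25.6, 23.6 and 25.2 CPM, then at 29.2, 36.8 and 35.7 CPM, and with LPS/5z7 at 23.2, 29.7 and 27.9 CPM. There the LPS and LPS/5z7 libraries overlapped and the drop was 0.33 ± 0.11 (edgeR, adjusted p = 0.0468).

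Tsr1 was at 35.8, 37.9 and 37.9 CPM with LPS/5z7 in B6, below all LPS libraries and above all unstimulated ones, and fell by 0.40 ± 0.09 against LPS (edgeR, adjusted p = 0.00494). In T169A cells Tsr1 was at 32.6, 36.5 and 37.1 CPM and fell by 0.34 ± 0.09 (edgeR, adjusted p = 0.0155). Its antisense neighbour Srr had uncalled changes of -0.04 in B6 and 0.41 in T169A cells. Rrs1 was at 67.6, 67.6 and 61.5 CPM with LPS/5z7 in B6 and at 59.4, 63.2 and 62.7 CPM in T169A. Rrs1 with LPS/5z7 was still 4.28 and 4.86 times its unstimulated level, while falling by 0.33 ± 0.09 and 0.32 ± 0.09 against LPS (edgeR, adjusted p = 0.0147 and 0.0195). Rrp9 fell by 0.47 ± 0.13 in B6 and 0.50 ± 0.13 in T169A cells, and Ddx21 by 0.42 ± 0.13 and 0.40 ± 0.13. Dkc1, not called with LPS, was at 7.08, 7.48 and 9.13 CPM with LPS/5z7 in T169A cells, below all 3 LPS libraries, and fell by 0.45 ± 0.12 (edgeR, adjusted p = 0.0204); its B6 change of -0.25 ± 0.12 was not called. Nhp2, Noc3l, Wdr12 and Rrp1b, which LPS had changed, had changes against LPS of -0.05, -0.06, -0.03 and 0.05 in B6, all uncalled, with 95% intervals for Wdr12 from -0.34 to 0.28 and for Rrp1b from -0.33 to 0.43.

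The calls with 5z7 were sensitive to single libraries in T169A cells. There 2 genes were called when LPS library 17 was dropped and 3 when LPS library 14 was dropped. Of all genes, 743 of 13343 and 617 of 13345 fell in these fits. Dropping LPS/5z7 library 12 gave 4, and dropping library 15 or 18 gave 5. Without library 12, 15 or 18, in this order, 839, 566 and 560 of all genes fell. Of the 9 genes, Nop58 was the 1 called in every such fit. In B6 cells 5 or 6 genes were called with any 1 library left out, and Gnl3, Nop58, Rrs1 and Tsr1 were called in every fit. From 629 to 733 of all genes fell in these B6 fits. With libraries 7, 8 and 11 left out together, a choice made after seeing the data, 13 fell in B6 and 12 in T169A cells. Of all 13232 genes in that fit, 1569 fell in B6 and 1282 in T169A cells.

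Of the 114 other pathway genes 13 fell with 5z7 and 1 rose in B6 under TMM, against 6.79% and 7.03% of all genes. In T169A cells 10 fell and 0 rose, against 6.53% and 6.5%. By library size alone 6 fell and 7 rose in B6, against 516 and 2339 of all 13068 genes. In T169A cells 5 fell and 13 rose by that scaling, against 530 and 2177 of all genes. Mak16, a large-subunit factor, was at 22.4, 23.1 and 23.4 CPM unstimulated, at 46.3, 46.8 and 48.5 CPM with LPS and at 31.5, 29.1 and 27.2 CPM with LPS/5z7 in B6. These 3 groups were fully separate, and Mak16 fell by 0.69 ± 0.07 against LPS (edgeR, adjusted p = 6.4e-06). Dcaf13 and Rcl1 fell by 0.53 ± 0.07 and 0.50 ± 0.11 in B6, and the RNA helicase Ddx55 was the 1 gene that rose, by 0.47 ± 0.15 (edgeR, adjusted p = 0.0385). Myc was at 5.47, 3.79 and 5.83 CPM with LPS/5z7 in B6 and at 3.56, 7.94 and 5.64 CPM in T169A. All 6 values lay below every other library, and Myc fell against LPS by 1.70 ± 0.27 in B6 (edgeR, adjusted p = 0.000347) and by 1.90 ± 0.26 in T169A cells (edgeR, adjusted p = 9.16e-05). Mxd1 fell as well, by 1.50 ± 0.16 and 1.58 ± 0.16, while Mycl and Mnt had uncalled changes of 0.26 and 0.15 in B6.

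Against unstimulated cells, LPS/5z7 was compared last within a genotype, in a contrast that shares its controls with the first. In B6 18 of the 43 genes rose, against 27.6% of all genes, and 6 fell, against 27.9%; in T169A cells 21 rose, against 28.1%, and 9 fell, against 27.5%. By library size alone 7 rose and 21 fell in B6, where 2075 of all 13068 genes rose and 7334 fell. In T169A cells 8 rose and 19 fell by that scaling, against 1975 and 6999 of all genes. The 17 genes that rose in both genotypes under TMM were led by Rrs1 (2.10 ± 0.09 in B6 and 2.28 ± 0.09 in T169A on the log2 scale) and Wdr43 (1.15 ± 0.13 and 1.05 ± 0.13). Polr1b, Nat10, Rrp1b, Utp14a and Wdr12 fell in both. Polr1b was at 12.5, 10.7 and 12.9 CPM with LPS/5z7 in B6 and at 10.7, 12.9 and 11.6 CPM in T169A, below all unstimulated libraries, and fell by 0.35 ± 0.10 and 0.37 ± 0.10 (edgeR, adjusted p = 0.00732 and 0.00528). Pes1, at 72.2, 76.9 and 69.9 CPM, fell in B6 by 0.23 ± 0.07 (edgeR, adjusted p = 0.0113), and in T169A cells, at 73.7, 76.8 and 76.3 CPM, it was not called. Heatr1 was at 52.1, 48.5 and 47.5 CPM in B6 and at 41.4, 40.7 and 38.3 CPM in T169A. Only the T169A values lay below all unstimulated libraries, and Heatr1 fell there by 0.43 ± 0.17 (edgeR, adjusted p = 0.0405). In B6 the overlap was with unstimulated library 7 alone, and Heatr1 was not called. The difference of this change between genotypes was not called either. The abundant Ncl, at 314, 309 and 265 CPM in B6 and 307, 272 and 261 CPM in T169A, overlapped its unstimulated libraries in both genotypes, and Npm1, at 209, 193 and 174 CPM and at 203, 172 and 170 CPM, was not called either. Fbl was at 31.8, 36.1 and 28.0 CPM in B6 and 28.9, 31.7 and 29.8 CPM in T169A, with no call (edgeR, adjusted p = 0.145 and 0.054).

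**Figure D5:**
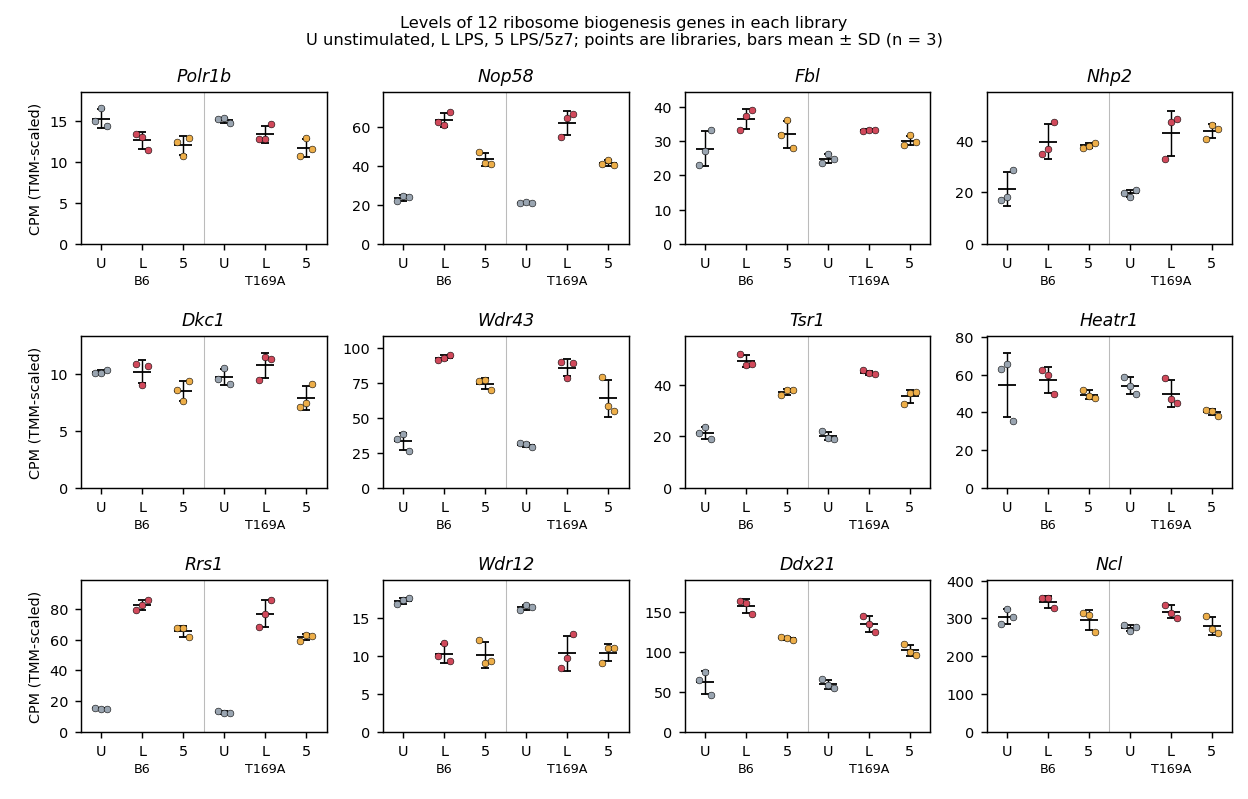
Levels in TMM-scaled CPM of 12 of the 43 genes in each library of the 6 groups: unstimulated (U), LPS (L) and LPS/5z7 (5) in B6 and T169A; points are libraries and bars mean ± SD (n = 3). Rrs1, Nop58, Wdr43, Tsr1 and Ddx21 were lowest unstimulated, highest with LPS and between with LPS/5z7 by group mean in both genotypes, Wdr12 was highest unstimulated, and the single low Heatr1 value among the unstimulated B6 libraries is library 7.

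The last comparison asks what the T169A change in RIPK1 does to these genes. None of the 43 genes was called between genotypes in unstimulated cells (0.214% of all genes), with LPS (0.222%) or with LPS/5z7 (0.161%) by edgeR, and DESeq2 called none either. At an unadjusted p under 0.05 edgeR had 3 of 43 unstimulated and 0 in both other states. The lowest adjusted p over the 43 genes was 0.589 unstimulated, 0.876 with LPS and 0.766 with LPS/5z7. Of the 43 estimates, 37 were below 0 in unstimulated cells, 33 with LPS and 29 with LPS/5z7, with medians of -0.09, -0.09 and -0.07 on the log2 scale against 0.00 for all genes. With libraries 7, 8 and 11 left out, a choice made after seeing the data, 36, 22 and 29 were below 0, and the median with LPS was 0.00. Fibroblast markers, of which 3 to 4 of 6 were detected per group with Lum at or near 0, summed to 3.04 to 6.96 CPM over the B6 and 4.83 to 12.2 CPM over the T169A libraries; none of the 3 tested was called between genotypes (edgeR; 2, 2 and 1 at an unadjusted p under 0.05), and their part in these estimates was not tested. The 43 estimates of a state come from the same libraries and are not independent. The 95% intervals of single genes reached from -0.49 to 0.44 unstimulated, from -0.75 to 0.48 with LPS and from -0.70 to 0.57 with LPS/5z7, a span set by the least precise genes. Rrs1 had the smallest p in unstimulated cells, with -0.27 ± 0.09 and all 3 T169A libraries (13.8, 12.1 and 12.2 CPM) below the B6 ones (14.9 to 15.8 CPM), but its adjusted p was 0.589 (edgeR).

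The genotype result with LPS depended on whether libraries 7, 8 and 11 were kept. With libraries 7, 8 and 11 left out, 9 of the 43 genes were called between T169A and B6 with LPS, 3 higher (Nhp2, Polr1c and Rrp9) and 6 lower (Ddx10, Ddx21, Heatr1, Polr1a, Utp14a and Utp20), while 3139 of all genes, or 23.7%, were called too. Called values ran from -0.66 for Utp20 to 0.42 for Nhp2. The 3 higher genes have exons of 1146 to 2933 bases and the 6 lower ones 3128 to 11871 bases. The LPS libraries kept were 2 and 5 in B6 and 14 and 17 in T169A. Relative to their own group of 3, long genes minus short ones stood at 0.21 and 0.06 in these B6 libraries. In the T169A libraries they stood at -0.07 and -0.27. Each value is relative to a group mean that includes the library left out, 8 or 11, so the opposite signs largely follow from that. These values do not measure a difference by length between B6 and T169A. The part of length in the 9 calls was not tested. In the same fit 1 of the 43 genes, Heatr1, was called with LPS/5z7, against 4.41% of all genes, and 0 unstimulated (8 at an unadjusted p under 0.05), against 1.28%. With the trend of level on exon length removed from every library instead, 0 of the 43 were called with LPS (2 at an unadjusted p under 0.05) and 0.289% of all genes were. Both settings were chosen after seeing the data. No gene of the 43 differed between genotypes in its change with LPS, with 5z7 added, or with LPS/5z7 against unstimulated (edgeR, 0 called of 43 in each and 0% of all genes; 0, 0 and 1 of 43 at an unadjusted p under 0.05; DESeq2 also called none of the 43). Rrs1, the gene that LPS changed most, rose by 2.43 ± 0.09 in B6 and 2.60 ± 0.09 in T169A cells, and the difference of 0.17 ± 0.12 had an adjusted p of 0.916 (edgeR).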

How the data were processed

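RNA was made into libraries with a directional kit after TRIzol extraction, per the labels' protocols. The deposited values are raw counts per gene; reads were handled with Trim Galore, STAR and featureCounts on GRCm39, per the submitters' processing notes, and versions, strand setting and treatment of multiply matched reads are not given in the sources used here. The 18 libraries held 14.6 to 30.4 M counts, so 3 counts, the limit that a count of 0 allows, equal 0.0986 to 0.205 CPM (counting error only). Symbols were matched for 52029 of 56953 gene IDs, and 31172 IDs had no counts.

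Counts were filtered by group, scaled by TMM and fitted over 13068 genes as 6 group means with edgeR's robust quasi-likelihood test (edgeR 4.0.16, R 4.3.3), with 12 contrasts and p-values adjusted by Benjamini-Hochberg over all genes tested (threshold 0.05). DESeq2 1.42.0 and other scalings, filters and sets of libraries were alternatives, and limma 3.58.1 supported the fits. Exon lengths and overlaps came from GENCODE M21 (GRCm38), and no GRCm39 coordinates were used; promoters came from RefSeq (GRCm38.p6). The 43 genes and all lists were chosen with earlier results of these data known. All 43 genes could be named. Values per library are given for the most changed called gene of each role with LPS in B6, the 4 smallest p-values for LPS/5z7 against LPS in B6, and Polr1b, Fbl, Dkc1, Heatr1, Pes1, Ncl and Npm1; pathway and Myc network genes, and Wdr12, were picked after their values were seen. Figures were drawn with matplotlib 3.10.9.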

Additional observations from a re-analysis of the deposited data

How the results depend on the processing

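Of the 258 changes within a genotype, library size alone reversed 41, none of them for LPS/5z7 against LPS. Only changes called under TMM could count as reversed, and sign changes of uncalled genes were not counted. With it, LPS gave 8 higher and 20 lower of 43 in B6 and 9 and 17 in T169A. LPS/5z7 against LPS gave 2 lower in B6 and 1 in T169A, and LPS/5z7 against unstimulated gave 7 and 21 in B6 and 8 and 19 in T169A. The counts over all genes by library size alone stand with these comparisons above. The log2 changes that reversed there were, for LPS in B6, Bop1 -0.14, Fbl -0.20, Gar1 -0.061, Gnl3 -0.20, Nolc1 -0.11, Nop14 -0.23, Nop2 -0.072, Nop56 -0.047, Utp18 -0.34, Utp20 -0.011, Utp4 -0.24 and Wdr74 -0.13. For LPS in T169A they were Bop1 -0.12, Fbl -0.17, Gnl3 -0.13, Mybbp1a -0.0055, Noc2l -0.35, Nop14 -0.32, Nop16 -0.10, Nop2 -0.11, Nop56 -0.011, Npm1 -0.21, Polr1c -0.11, Utp18 -0.18 and Utp4 -0.22. For LPS/5z7 against unstimulated they were, in B6, Bop1 -0.15, Gar1 -0.11, Mybbp1a -0.027, Noc4l -0.026, Nolc1 -0.14, Nop14 -0.21, Nop2 -0.11 and Wdr74 -0.030, and in T169A Bop1 -0.029, Gar1 -0.014, Mybbp1a -0.11, Nolc1 -0.12, Nop16 -0.014, Nop2 -0.15, Nop56 -0.12 and Utp18 -0.14. No other setting reversed a called change. DESeq2 gave 3 lower with LPS and 15 lower with LPS/5z7 against LPS in B6, where 4085 of 16882 and 1202 of 12205 genes fell. Its size factors in edgeR gave 3 and 11, where 4145 and 1030 of 13068 fell. Fitting the groups compared alone gave 2 and 11, where 3254 of 12632 and 1308 of 11941 fell. It gave 5 lower for LPS/5z7 against LPS in T169A, where 816 of 11900 fell. Leaving out libraries 7, 8 and 11, chosen after seeing the data, gave 13 lower for LPS/5z7 against LPS in B6, 7 lower with LPS in T169A, and between genotypes 3 higher and 6 lower with LPS and 1 lower with LPS/5z7. With LPS in T169A, 4453 of all 13232 genes fell in that fit, and its other counts over all genes stand above. Removing the length trend, also chosen later, gave 10 lower for LPS/5z7 against unstimulated in B6, where 4106 of all 12811 genes fell. With no filter, T169A had 4 lower for LPS/5z7 against LPS and 5 lower for LPS/5z7 against unstimulated. Of all 25781 genes in that fit, 678 and 3483 fell. The E-box share was 5.26% over the 250 bases before the start. Leaving out 1 library gave 2 to 6 genes lower with LPS in B6 (2 without unstimulated library 4, 3 without LPS library 8), 2 to 8 lower for LPS/5z7 against LPS in T169A, and 5 to 7 lower for LPS/5z7 against unstimulated in T169A (5 without library 10, 13 or 15). Over these fits without 1 library, 3939 to 4480 of all genes fell with LPS in B6. In T169A, 560 to 839 fell for LPS/5z7 against LPS and 3121 to 3402 for LPS/5z7 against unstimulated. The cause of the shifts between settings was not tested. No paired analysis was possible because the columns carry a running number and not the letter of the sample titles, and were not matched to letters by their order.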
